A study of Homo sapiens with 6 samples.

Results

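ATP-binding cassette (ABC) transporters are a family of proteins that bind and hydrolyse ATP. The 45 genes described here are those of the 20461 genes in the deposited RNA-seq table whose current symbol is ABCA, ABCB, ABCC, ABCD, ABCE, ABCF or ABCG followed by a number. Readthrough genes were left out, and this rule uses no expression value. Earlier results of these data were known when members and lists were chosen. They were followed in PANC1, an established human pancreatic carcinoma cell line, grown for 24 h and then exposed for 48 h to 0.1% DMSO as vehicle or to gemcitabine at 50 nM, a nucleoside drug that stops DNA replication. RNA-seq covered 2 libraries per condition, which the study states to be biological replicates, and DNaseI-seq, which maps accessible chromatin, covered 1 library per condition. All libraries come from this 1 line, and the p-values measure only the spread between these 4 RNA libraries. In bulk RNA, a change in the share of cells that express a gene and a change in RNA per cell cannot be told apart.

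Most ABC proteins span a membrane and use ATP to move a substrate across it, and the family letter groups them by sequence. Members of ABCA and ABCG mostly move lipids and sterols, ABCB1, ABCC1 and ABCG2 are the classical multidrug exporters that pump cytotoxic drugs out of tumour cells, and ABCD proteins serve the peroxisome and the lysosome. ABCE1 and the ABCF proteins have no membrane-spanning part and act on the ribosome, in recycling and in the initiation of translation.

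The libraries hold 13194535 to 15766232 fragments assigned to genes, so that 3 fragments, the most that a count of 0 allows, correspond to 0.190 to 0.227 CPM, where CPM are counts relative to library size, for counting error only. Of 7 ductal carcinoma markers, 6 had a mean of at least 1 FPKM in a condition (fragments scaled to transcript length and library depth), with a summed level of 2530 to 2770 FPKM over the libraries, and CDH1 stayed below 1. Of 5 fibroblast markers, 3 reached 1 FPKM, and their sum, nearly all of it COL1A1, was 872 and 875 FPKM in vehicle and 1000 and 1110 after gemcitabine. Of 4 leukocyte markers, only CD68 reached 1 FPKM, the list summed to 10.9 and 10.7 FPKM in vehicle and 20.5 and 24.7 after gemcitabine, and CD3E was at 0. Endothelial and acinar markers stayed below 0.3 FPKM in sum, and INS and GCG of the islet were at 0. On the fragment counts, COL1A1 differed by 0.03 on the log2 scale (adjusted p = 0.739 by the quasi-likelihood test of edgeR), while CD68 was higher after gemcitabine by 0.94 (adjusted p = 6.53e-05). By the same edgeR test LUM, KRT19 and VWF were also higher, by 0.77, 1.13 and 2.01 (adjusted p = 0.00375, 0.000651 and 0.000902). KRT8 and KRT18 were higher by 0.29 and 0.27, and KRT7 changed by -0.18 (edgeR adjusted p = 0.00319, 0.00586 and 0.0426). The part of these marker differences in the values below was not tested.

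The promoters of 4 members are shown first. They were picked by the RNA and peak results given below, and none of those results rests on the sequences. ABCE1, ABCF1 and ABCF2 are the soluble translation factors whose RNA fell after gemcitabine and whose starts lie in DNaseI peaks, and ABCA7 is a member that was called higher. Each sequence holds the 200 bases of hg19 before the outermost annotated start, 5′ to 3′ on the strand of the gene. Capitals mark matches, on either strand, to the E-box CACGTG, the GC box GGGCGG, the CCAAT box CCAAT, the ETS core CCGGAAG, the cyclic AMP response element (CRE) TGACGTCA and the TATA box TATAAA.
ABCE1: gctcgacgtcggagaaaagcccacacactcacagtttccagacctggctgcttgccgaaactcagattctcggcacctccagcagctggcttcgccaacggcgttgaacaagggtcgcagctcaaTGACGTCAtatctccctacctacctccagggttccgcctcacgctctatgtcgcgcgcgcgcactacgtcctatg
ABCF1: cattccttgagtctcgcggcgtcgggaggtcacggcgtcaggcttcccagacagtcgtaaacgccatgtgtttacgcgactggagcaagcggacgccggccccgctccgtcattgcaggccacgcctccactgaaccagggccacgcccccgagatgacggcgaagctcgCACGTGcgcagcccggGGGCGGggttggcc
ABCF2: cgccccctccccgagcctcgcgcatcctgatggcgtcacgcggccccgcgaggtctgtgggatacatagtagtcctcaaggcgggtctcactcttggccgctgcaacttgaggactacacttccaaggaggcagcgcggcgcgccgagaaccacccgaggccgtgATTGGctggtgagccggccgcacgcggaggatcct
ABCA7: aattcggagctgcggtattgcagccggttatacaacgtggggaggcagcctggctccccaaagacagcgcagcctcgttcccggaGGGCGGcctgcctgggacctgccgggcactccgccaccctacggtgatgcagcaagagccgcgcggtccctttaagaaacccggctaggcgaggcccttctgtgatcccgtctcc
The ABCE1 sequence is chr4:146019240-146019439 on the plus strand and holds a CRE whose first base lies 75 bases before the start. The same letters occur in 2.07% of the 18558 promoter regions of this length, and ABCE1 is the 1 member with a match. The ABCF1 sequence, chr6:30538970-30539169 on the plus strand, holds an E-box 30 bases and a GC box 14 bases before the start. The E-box occurs in 4 members (8.89%) and in 6.43% of all regions. The ABCF2 sequence, chr7:150924292-150924491 on the minus strand, holds a CCAAT box read on the other strand, 35 bases before the start. CCAAT occurs in 8 members (17.8%) against 30.1% of all regions. The ABCA7 sequence, chr19:1039796-1039995 on the plus strand, holds a GC box 115 bases before the start, a match found in 18 members (40.0%) and in 52.5% of all regions. These matches describe letters in a window and no binding was measured.

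The share of ABC genes expressed in PANC1 lay near that of all genes at 0.1 and 1 FPKM, and below it at 10 FPKM. A mean of at least 1 FPKM in 1 condition was reached by 26 of the 45 members (57.8%, against 59.9% of all 20461 genes). At least 0.1 FPKM was reached by 33 (73.3%, against 70.7%) and at least 10 FPKM by 16 (35.6%, against 41.5%). ABCA2, a lipid transporter of the lysosome and endosome, had the highest level, at 89.0 and 92.7 FPKM with vehicle and 93.1 and 82.4 FPKM with gemcitabine. It was followed by ABCF1 (a mean of 59.4 FPKM over the 4 libraries), the organic anion exporter ABCC3 (59.0), ABCE1 (57.1) and ABCF3 (51.4). The levels of ABCF1, ABCC3, ABCE1 and ABCF3 overlap between libraries, so their order is not separated from the spread, whereas every ABCA2 library lies above every library of the others. ABCB6, a transporter linked to haem, came next, at 50.5 FPKM.

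**Figure D1:**
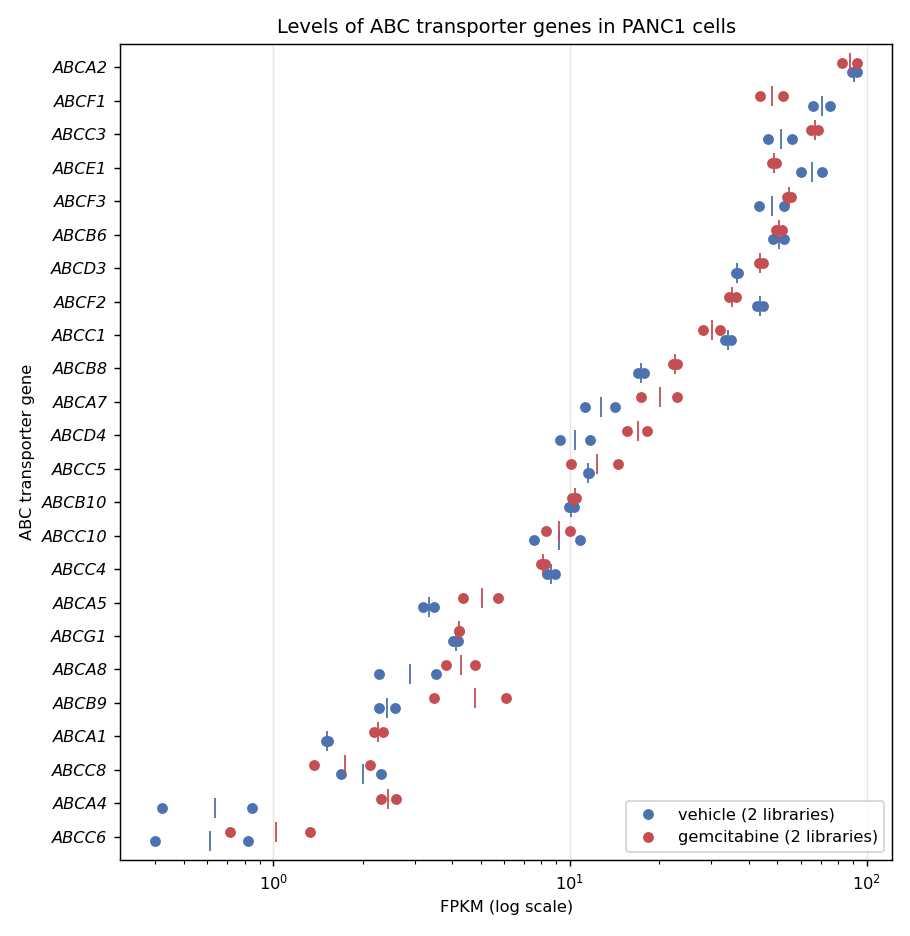
FPKM of 24 of the 26 ABC genes with a mean of at least 1 FPKM in 1 condition, on a log scale, ordered by the mean over the 4 libraries. Points are libraries and short vertical bars are condition means; ABCA2 stands highest at a mean of 89.3 FPKM, and the conditions are apart for genes such as ABCF1, ABCE1 and ABCA4.

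The 7 members that were too low to test were ABCA6, ABCA9, ABCB11, ABCC11, ABCC12, ABCG5 and ABCG8, with 1 to 9 fragments over the 4 libraries. ABCB11 is the bile salt export pump of the liver, and ABCG5 with ABCG8 forms the sterol exporter of liver and gut. A change in these genes was not detectable at this depth.

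The effect of gemcitabine on each gene was tested on the fragment counts by the quasi-likelihood test of edgeR with Benjamini-Hochberg adjustment over the 14854 genes with at least 10 fragments (the edgeR test). Following the criteria of the study, calls required an adjusted p under 0.05, a fold of more than 1.5 (0.585 on the log2 scale), a mean of 0.1 FPKM or more in 1 condition, and means at least 1 FPKM apart. Of the 38 tested members, 2 were called higher after gemcitabine, ABCA7 and ABCA4, which is 5.26% of the members against 5.69% of all tested genes. None was called lower, against 4.42% of all tested genes. An adjusted p under 0.05 alone, without the fold and FPKM criteria, was reached by 13 members (34.2%, against 38.5% of all tested genes), 8 of them higher (18.5% of all genes) and 5 lower (20.0%). The edgeR test gave log2 fold changes above 0 for 22 members and below 0 for 16, beside 7537 and 7317 of all tested genes. The median of the members was 0.062 against 0.0069 over all genes. The shares of the family thus lay near those of all genes, and 10 of the 13 members past the adjusted p changed by 1.5-fold or less. Where conditions of these 13 are described below as apart in CPM, this comes from the same counts and adds no separate support. Leaving out a vehicle library lowered the share of all tested genes past the adjusted p, and leaving out a gemcitabine library raised it. An adjusted p that a member below lost or gained in such a run is not read as particular to that member. With limma on log2(FPKM + 1) in place of the counts, ABCA4 was the 1 member of the 13 that kept an adjusted p under 0.05.

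**Figure D2:**
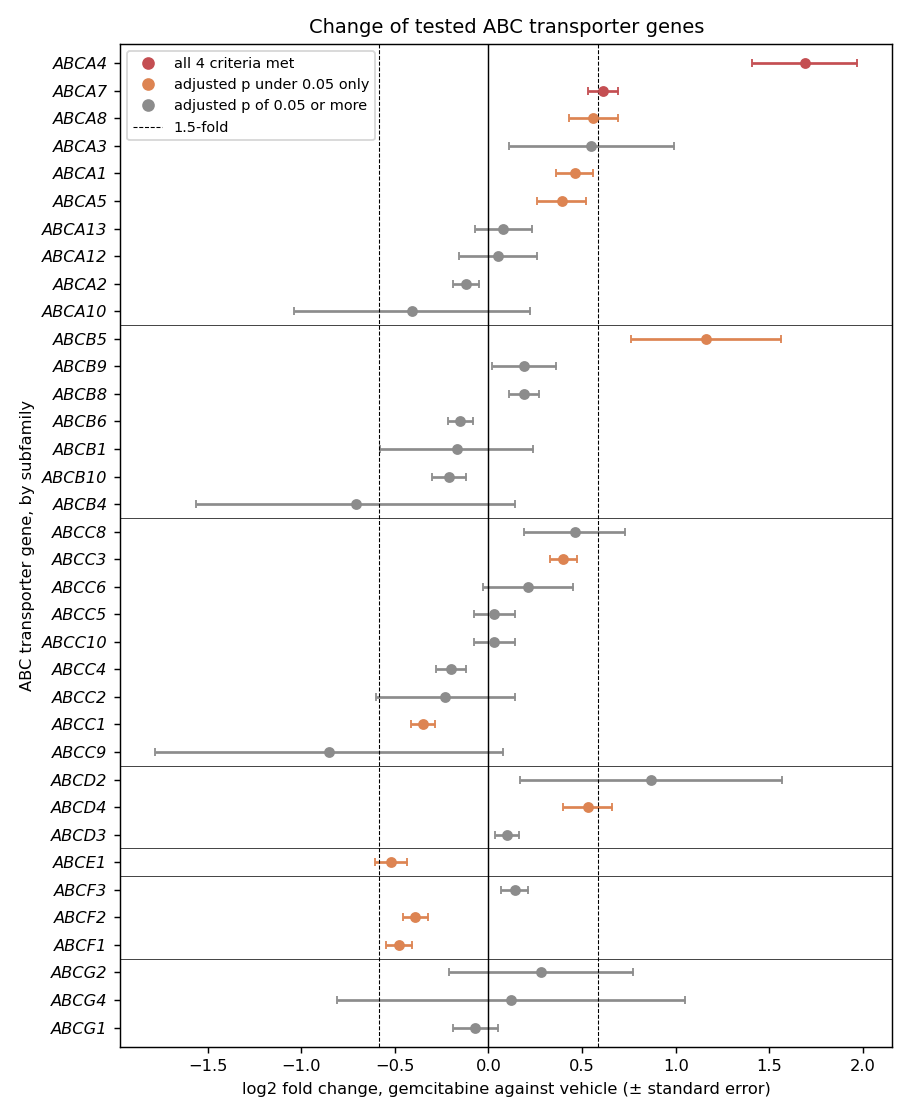
Log2 fold change of fragment counts, gemcitabine against vehicle, with its standard error, for 36 of the 38 tested ABC genes, grouped by subfamily A to G from top to bottom. Red marks the 2 genes that met all 4 criteria, orange 10 others with an adjusted p under 0.05 by the edgeR test and grey the rest; the dashed lines stand at 1.5-fold.

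The lipid and sterol transporters held both called members. Of 17 such genes 13 were tested, 5 had an adjusted p under 0.05 (38.5%, the same share as over all tested genes), all of them higher after gemcitabine (against 18.5% of all genes), and the median log2 fold change was 0.115. These 5 were ABCA genes, and of the 10 tested ABCA genes 8 had a log2 fold change above 0, as did 7537 of all 14854 tested genes. The median of the ABCA genes was 0.43.
ABCA7, a transporter that moves phospholipids to apolipoproteins and takes part in phagocytosis, lies at chr19:1039996-1065571. After scaling of the library sizes by edgeR's TMM method its level was 40.9 and 39.0 CPM with vehicle against 63.6 and 58.7 CPM with gemcitabine. Both gemcitabine libraries lay above both vehicle libraries, also in FPKM, which went from 14.2 and 11.2 to 23.0 and 17.3. The log2 fold change was 0.61 (standard error 0.080, edgeR test adjusted p = 3.37e-05), a 1.53-fold rise that only just passed the fold criterion. Without gemcitabine replicate 1 it was 0.56, under the fold criterion, and ABCA7 was no longer called. Replicate numbers of left-out libraries follow the library index of the deposited data, which has no stated link to the replicate numbers in the labels.
ABCA4, at chr1:94458390-94586704, encodes a flippase known from photoreceptors, where it clears retinoid conjugates. Its fragments numbered 33 and 21 in vehicle and 92 and 70 with gemcitabine, or 2.27 and 1.38 against 6.63 and 5.14 scaled CPM. The groups did not overlap, and the level stayed low, at 0.422 and 0.851 FPKM in vehicle and 2.30 and 2.59 after treatment. The log2 fold change was 1.69 (standard error 0.28, edgeR test adjusted p = 0.000261), and it ranged from 1.38 to 2.09 with 1 library left out at a time, always called.
ABCA1, the exporter of cholesterol to apolipoprotein A-I and a target of the LXR receptors, rose from 18.0 and 18.5 to 26.0 and 24.4 scaled CPM, a log2 fold change of 0.46 (standard error 0.10, edgeR test adjusted p = 0.00222). In FPKM it went from 1.51 and 1.53 to 2.34 and 2.18, without overlap. ABCA8, which is related to lipid handling, rose from 10.6 and 10.3 to 14.8 and 15.9 scaled CPM, by 0.56 on the log2 scale (standard error 0.13, edgeR test adjusted p = 0.00295), just under the fold criterion, and without gemcitabine replicate 1 it was 0.61 and ABCA8 was called. ABCA5, a lysosomal member, rose from 11.3 and 13.3 to 16.1 and 16.2 scaled CPM, by 0.39 (standard error 0.13, edgeR test adjusted p = 0.0232). ABCA5 shares 318 exon bases with its neighbour ABCA10 on the same strand, so reads there could be assigned to either. All of these groups were apart, while the adjusted p was lost for ABCA1 without vehicle replicate 1 (0.0588) and for ABCA5 and ABCA8 when vehicle replicate 1 or vehicle replicate 2 was left out (at most 0.236 and 0.065).
The other lipid transporters gave no adjusted p under 0.05. ABCA2 had 273 and 261 scaled CPM in vehicle and 233 and 258 after gemcitabine, or -0.12 on the log2 scale (standard error 0.070, edgeR test adjusted p = 0.194). Its conditions were apart in scaled CPM and overlapped in FPKM, and without gemcitabine replicate 2 its log2 fold change was -0.19 with an edgeR test adjusted p of 0.00366. ABCG1, which loads cholesterol onto lipoproteins and is an LXR target like ABCA1, had 196 and 200 fragments in vehicle and 177 and 172 after treatment, or -0.07 on the log2 scale (standard error 0.12). A list of 14 other genes of cholesterol efflux and LXR action had 3 with an adjusted p under 0.05 in each direction (18.5% of all tested genes were higher and 20.0% lower) and a median log2 fold change of 0.021. Of these, APOE, an acceptor of exported lipid, was called higher by 1.63 on the log2 scale and NPC2, a carrier of lysosomal cholesterol, by 0.61. SCD, a fatty acid desaturase and LXR target, was called lower and fell by 0.60 on the log2 scale.

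ABCA12 and ABCA13, the largest proteins of the subfamily, showed fragments that their FPKM did not reflect. ABCA12 had 59 to 70 fragments per library but only 0.0191 to 0.0372 FPKM, and ABCA13 had 129 to 169 fragments but 0.0198 to 0.0496 FPKM. Fragments divided by FPKM and by the depth of the library give the length that a value implies, and this was 188759 bases for ABCA12 and 366738 bases for ABCA13. Their longest annotated transcripts have 9298 and 17188 bases, so the implied length was 20.3 and 21.3 times the transcript, nearer to the whole gene with its introns (207084 and 476039 bases). Of 14154 tested genes with both lengths, 348 (2.46%) exceeded 10 times, and the median ratio was 0.646 over all genes and 0.632 over the tested members. Neither gene changed detectably, with log2 fold changes of 0.05 and 0.08 (standard errors 0.21 and 0.15).

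**Figure D3:**
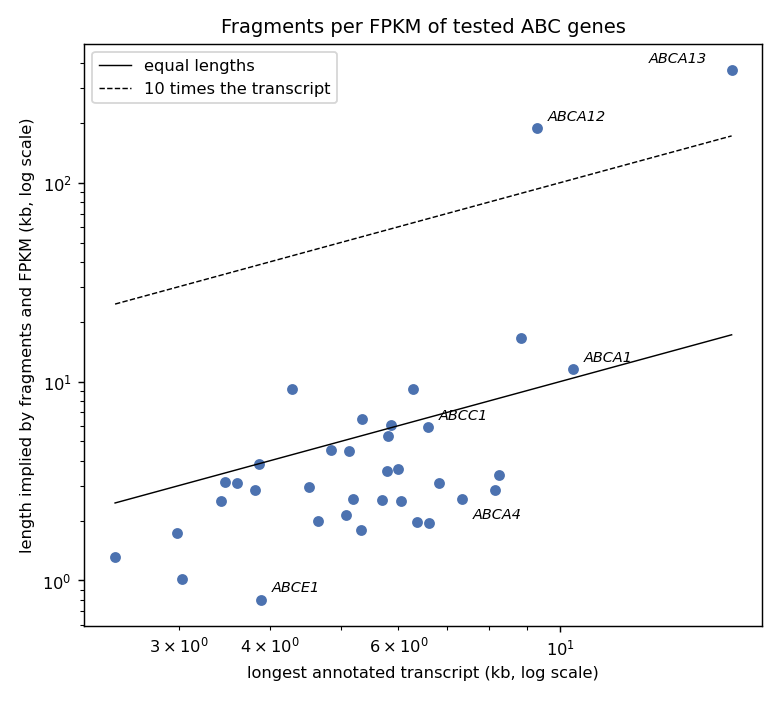
Length implied by fragments and FPKM against the longest annotated transcript, both in kilobases on log scales, 1 point for each of 36 tested ABC genes. The solid line marks equal lengths and the dashed line 10 times the transcript; ABCA12 and ABCA13 lie above it at 20.3 and 21.3 times.

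The drug and conjugate exporters did not move in a common direction. Of 13 such genes 10 were tested, ABCC3 and ABCB5 were higher and ABCC1 lower at an adjusted p under 0.05 (3 of the 10, against 38.5% of all tested genes), none met all 4 criteria, and the median log2 fold change was 0.027. ABCC3 (MRP3), which exports glucuronide and bile acid conjugates, lies at chr17:48712138-48769614 and rose from 128 and 131 to 181 and 160 scaled CPM. Both gemcitabine libraries lay above both vehicle libraries, and in FPKM the gene went from 46.4 and 56.2 to 68.6 and 65.0. Its log2 fold change was 0.40 (standard error 0.073, edgeR test adjusted p = 0.000616).
ABCC1 (MRP1), the exporter of glutathione conjugates and of several anticancer drugs at chr16:16042995-16237114, moved the other way, from 210 and 216 scaled CPM in vehicle to 168 in both gemcitabine libraries. It fell by 0.35 on the log2 scale (standard error 0.065, edgeR test adjusted p = 0.000741), and the groups did not overlap. In FPKM the fall was smaller, from 33.4 and 34.8 to 32.1 and 28.1. Without vehicle replicate 2 the adjusted p was 0.0515.
ABCB5, a relative of ABCB1 described in melanoma, had few reads, with 17 and 9 fragments in vehicle and 26 and 28 in the treated libraries. A log2 fold change of 1.16 (standard error 0.40, edgeR test adjusted p = 0.0329) passed the fold criterion, but its mean FPKM differed by only 0.187. The log2 fold change was 0.75 without vehicle replicate 2 and 1.09 without gemcitabine replicate 2, and neither run kept the adjusted p.

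In contrast to ABCC1, the exporters ABCB1, ABCG2 and ABCC2 had few fragments in these cells. ABCB1 (P-glycoprotein) had 19 and 15 fragments in vehicle and 13 and 15 after gemcitabine, at 0.206 to 0.642 FPKM. ABCG2 (breast cancer resistance protein) had 11 and 13 fragments in vehicle and 19 and 8 after gemcitabine, and ABCC2 (MRP2) had 22 and 20 against 17 and 16. At this depth their log2 fold changes of -0.17, 0.28 and -0.23 carried standard errors of 0.41, 0.49 and 0.37, and a change was not detectable (edgeR test adjusted p = 0.784, 0.687 and 0.655).
ABCC4, ABCC5 and ABCC10, which export cyclic nucleotides and nucleotide analogues or taxanes, were better covered. ABCC4 had 8.37 and 8.88 FPKM in vehicle and 8.02 and 8.25 after gemcitabine, and its log2 fold change was -0.20 (standard error 0.079, edgeR test adjusted p = 0.0631). ABCC5 had 11.6 and 11.5 FPKM in vehicle, between the 14.5 and 10.1 FPKM of the gemcitabine libraries, and its log2 fold change was 0.03 (standard error 0.11, edgeR test adjusted p = 0.870). Its value turned from -0.19 without gemcitabine replicate 1 to 0.22 without gemcitabine replicate 2. ABCC10 overlapped between conditions as well, at 10.8 and 7.54 FPKM against 10.0 and 8.33, or 0.03 on the log2 scale (standard error 0.11, edgeR test adjusted p = 0.871).
Genes that supply or share the substrates of these exporters were read from the same test. Of 18 genes of glutathione synthesis and conjugation, 8 had an adjusted p under 0.05 and were higher (18.5% of all tested genes) and 5 lower (20.0% of all), and their median log2 fold change was 0.25. GGT1, which splits extracellular glutathione, was called higher by 1.33 (standard error 0.29), from 28 and 19 to 58 and 52 fragments. Its FPKM overlapped, at 2.17 and 0.716 in vehicle against 2.06 and 3.84 after gemcitabine. Of 4 carriers that take up nucleosides, and with them gemcitabine, 3 were tested. SLC29A1 was called lower, from 48.1 and 44.9 to 31.6 and 32.0 FPKM, and fell by 0.64 on the log2 scale. SLC29A2 was called lower as well and fell by 0.92.

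**Figure D4:**
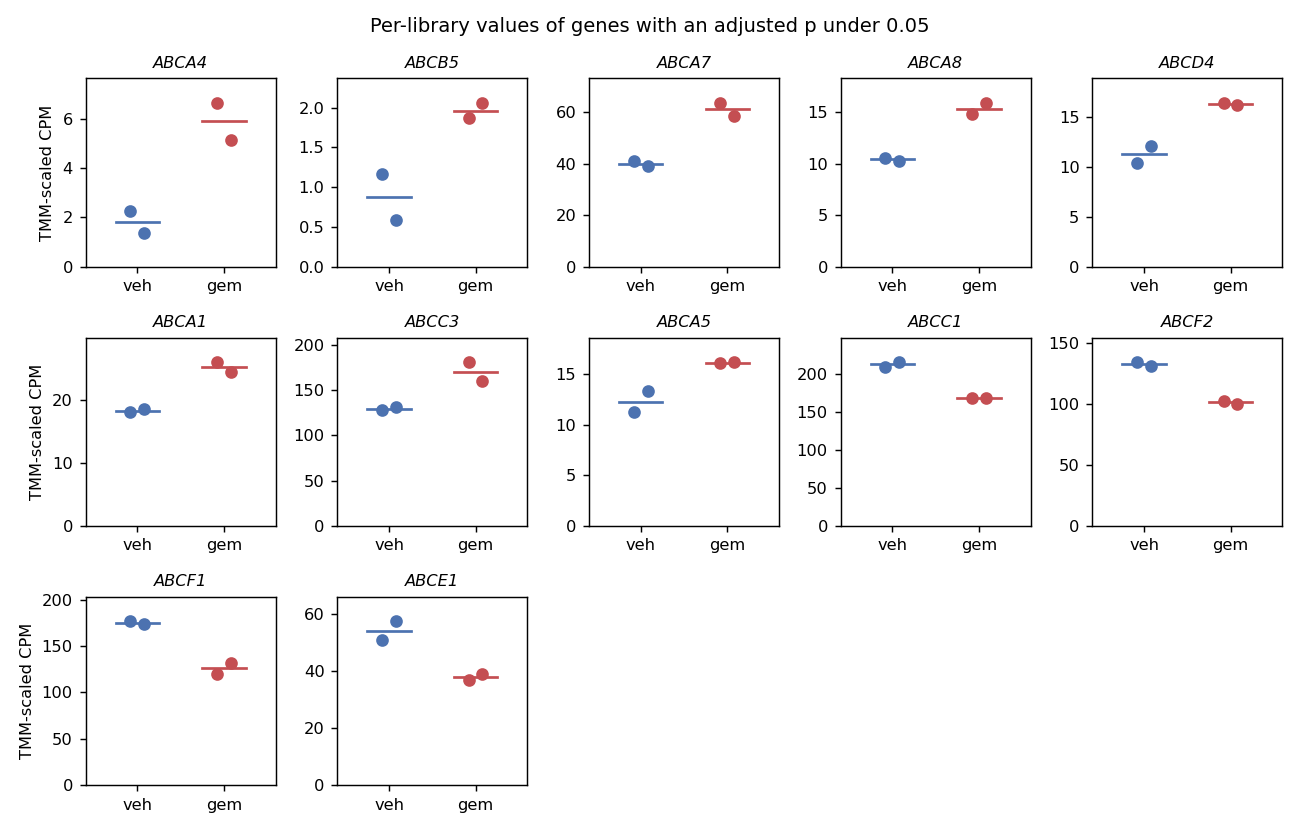
TMM-scaled CPM of 12 of the 13 ABC genes with an adjusted p under 0.05 by the edgeR test, in the 2 vehicle (blue) and 2 gemcitabine (red) libraries, with the condition mean as a line and each axis starting at 0. The conditions are apart in every panel, 8 genes are higher and 4 lower, and only ABCA4 and ABCB5 differ by more than 2 times. The genes were chosen by the test on these same counts, so the gap between conditions is no separate support.

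Of the 4 soluble members that act on the ribosome, 3 fell at an adjusted p under 0.05 (20.0% of all tested genes were lower) and none met all 4 criteria, with a median log2 fold change of -0.43. ABCF1, which binds initiation factor eIF2, lies at chr6:30539170-30564956 and went from 177 and 174 scaled CPM in vehicle to 120 and 132 after gemcitabine. It fell by 0.48 on the log2 scale (standard error 0.070, edgeR test adjusted p = 0.000102), and its FPKM fell without overlap from 66.2 and 75.4 to 43.9 and 52.2.
ABCE1, which splits ribosomes into subunits after termination, lies at chr4:146019440-146050676 and went from 50.8 and 57.5 to 36.7 and 38.9 scaled CPM. The groups were apart, also in FPKM, which went from 59.9 and 70.8 to 49.7 and 48. ABCE1 fell by 0.52 on the log2 scale (standard error 0.086, edgeR test adjusted p = 0.000280). Without vehicle replicate 1 it fell by 0.60 and was called lower. It shares 109 exon bases with ANAPC10 on the opposite strand, and whether reads were counted by strand is not given in the sources used here.
ABCF2, at chr7:150908570-150924291, went from 134 and 131 to 102 and 99.9 scaled CPM, without overlap. It fell by 0.39 (standard error 0.065, edgeR test adjusted p = 0.000322), and from 44.8 and 42.8 to 36.2 and 34.3 in FPKM. ABCF3, the remaining member, had 52.5 and 43.3 FPKM in vehicle and 54.1 and 55.6 after gemcitabine, with 1 gemcitabine library marked as a failed estimate by Cuffdiff. Its log2 fold change was 0.14 (standard error 0.071, edgeR test adjusted p = 0.128). With 1 library left out at a time, ABCF1 stayed between -0.55 and -0.40, ABCE1 between -0.60 and -0.42 and ABCF2 between -0.40 and -0.36, each with an adjusted p under 0.05.
Of 16 other genes of ribosome recycling and initiation, 7 had an adjusted p under 0.05 (43.8%, against 38.5% of all tested genes), all of them lower (20.0% of all genes), and the median log2 fold change was -0.17. GSPT1, the release factor eRF3a that works before ABCE1, was called lower, from 124 and 128 to 84.0 and 89.5 FPKM, and fell by 0.62 on the log2 scale (standard error 0.066, edgeR test adjusted p = 5.39e-06). EIF3J, which binds the small subunit during recycling, was called lower and fell by 0.60. PELO, the partner of ABCE1 at stalled ribosomes, had a log2 fold change of -0.14 (standard error 0.072, edgeR test adjusted p = 0.140).

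The transporters of mitochondria, peroxisomes and lysosomes held no called member. The mitochondrial ABCB transporters ABCB6, ABCB8 and ABCB10 had no adjusted p under 0.05. Their log2 fold changes were -0.15, 0.19 and -0.21, with standard errors of 0.067, 0.081 and 0.090. These proteins are linked to haem and iron-sulphur metabolism. Of 18 other genes of that metabolism, 3 had an adjusted p under 0.05 and were higher, against 18.5% of all tested genes, and 7 lower, against 20.0%.
Among the ABCD genes, ABCD4, which exports cobalamin from lysosomes, rose from 10.4 and 12.1 to 16.4 and 16.2 scaled CPM, and from 9.24 and 11.7 to 15.6 and 18.2 FPKM. The groups did not overlap, and the log2 fold change was 0.53 (standard error 0.13, edgeR test adjusted p = 0.00413). It was called without vehicle replicate 2, whereas without vehicle replicate 1 the adjusted p was 0.0988.
ABCA3, ABCB10, ABCC6 and ABCF2 have pseudogenes of their own name, so reads could be split between copies.
Of 15 genes of peroxisomal fatty acid oxidation, 7 had an adjusted p under 0.05 and were higher (18.5% over all tested genes) and 1 lower (20.0%), and their median log2 fold change was 0.17. ACOX3, an acyl-CoA oxidase, and AMACR, a racemase, were called higher by 0.87 and 0.77. PEX5, the import receptor of peroxisomal enzymes, was called lower and fell by 0.73.

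ABCB9, a lysosomal peptide transporter, differed between the scales. Its counts were 114 and 137 fragments in vehicle and 151 and 114 after gemcitabine, or 0.19 on the log2 scale (standard error 0.17, edgeR test adjusted p = 0.392), and the scaled CPM overlapped. Its FPKM did not overlap, at 2.57 and 2.27 in vehicle and 6.07 and 3.48 after gemcitabine, and the log2 ratio of the mean FPKM was 0.98. ABCB9 shares 961 exon bases with OGFOD2 and 686 with ARL6IP4 on the opposite strand, and reads of these genes cannot be told apart unless they were counted by strand.
The channel regulators ABCC8 (SUR1) and ABCC9 (SUR2), subunits of ATP-sensitive potassium channels, gave no adjusted p under 0.05. ABCC8 had 36 and 48 fragments in vehicle and 63 and 44 after gemcitabine, or 0.46 on the log2 scale (standard error 0.27), and ABCC9 had at most 5 fragments in a library. Of the pore subunits they pair with, KCNJ8 was called lower, from 9.73 and 8.99 to 5.98 and 7.05 FPKM, and fell by 0.61 on the log2 scale. For KCNJ11 the log2 fold change was -0.52 (standard error 0.30).
Over the 25 tested members with an adjusted p of 0.05 or more, depth set what could be seen. The 13 with at least 100 fragments in every library had log2 fold changes between -0.21 and 0.19 with standard errors of at most 0.17. The other 12 had standard errors of 0.21 to 0.93.

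Accessible chromatin at the start sites was read from the DNaseI peaks, 9606 in the vehicle and 10695 in the gemcitabine library. With 1 library per condition, a peak in only 1 of them is a description and was not tested. A peak within 1000 bases of an annotated start was found at 15 of the 45 members (33.3%) in either library, against 28.9% of 18832 genes. Of the 26 members expressed at 1 FPKM or more 14 had such a peak (53.8%, against 43.5% of expressed genes), and of the 19 others 1 had, ABCA12. The vehicle library had a peak at 7 members, the gemcitabine library at 13 and both at 5, namely ABCB8, ABCB10, ABCF1, ABCF2 and ABCF3. The share of all genes was counted over either library and not for each alone, so these counts are not read as a difference.
The highest score belonged to the peak over the start of ABCB8, a transporter of the mitochondrion, with a score, which rises as the p-value of the peak falls, of 237.57 in vehicle and 255.21 after gemcitabine. Peaks over the ABCF1 start scored 78.53 in vehicle and 57.11 after gemcitabine, and those over the ABCF2 start 63.57 and 114.77. ABCE1 had a peak in the gemcitabine library alone, at chr4:146018646-146019696 with a score of 71.3, which spans the promoter printed above with its CRE. The RNA of these 3 genes was lower after gemcitabine, while a peak was present in that library at each of them. The members called higher, ABCA7 and ABCA4, and also ABCA1, ABCC1 and ABCC3, had no peak within 1000 bases of a start in either library. ABCA8 and ABCB5, which rose at an adjusted p under 0.05 by the edgeR test, had none either. ABCA5 and ABCD4, which rose as well, had a peak over a start in the gemcitabine library alone, with scores of 65.94 and 50.17. Within 5000 bases, the distance used in the study, ABCA4 had a peak in the vehicle library, ABCA7 in the gemcitabine library and ABCC3 in both. Scores of the libraries are given side by side and were not compared, and both lists end at a score of 50.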

How the data were processed

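RNA-seq of 2 vehicle and 2 gemcitabine libraries and DNaseI-seq of 1 library each were taken from the labels. Single-end reads were aligned by the authors with TopHat2 2.0.8 (hg19) and assigned them to protein-coding Gencode genes with Cuffdiff 2.0.2. Their deposited table gives estimated counts of fragments (86.8% of the values are whole) and FPKM, summed over isoforms. The 2 columns of scaled fragments were not used. The deposited DNaseI peak lists were called by the authors with MACS and give a score for each peak.

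Current symbols were found by Ensembl ID for 19619 genes. Estimated counts were rounded, genes with at least 10 fragments were kept, and edgeR 4.0.16 in R 4.3.3 was run after TMM scaling (factors 0.959 and 0.966 for vehicle, 1.05 and 1.03 for gemcitabine; common biological coefficient of variation 0.0522) with no covariate, in place of the test of Cuffdiff. The F statistic and the fold change gave the standard errors. The script was tested on simulated data. The alternatives were DESeq2 1.42.0, limma 3.58.1 on FPKM, other size factors and filters, and leaving out each library. Starts, exons, pseudogenes and promoter sequence came from a Gencode annotation lifted to hg19, later than that of the authors, and its genome.

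Full statistics were given for members that were called or had an adjusted p under 0.05, for the 5 highest mean FPKM and for 8 drug exporters. Partner genes were named when called, at most 3 per list, or as defining partners of a member. The other members named with values (ABCG1, ABCA12, ABCA13, ABCB9, the channel regulators, the mitochondrial transporters) were chosen after their values were seen. Members and lists were chosen with earlier results of these data known. Lists were described by counts and medians, with no set test. A few members, partner genes and sequences covered by this rule are left out of the text and figures.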

Additional observations from a re-analysis of the deposited data

How the results depend on the processing

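All 13 members with an adjusted p under 0.05 kept their direction in every alternative run. Of these, 13 kept the adjusted p with DESeq2-type size factors and with edgeR's own filter, and 12 with library totals and without a filter. With DESeq2 11 kept it, where 26.2% of all tested genes passed, against 38.5% in the main run. Some of the 13 lost it with 1 library left out. The share of all genes that passed then fell without a vehicle library and rose without a gemcitabine library. With limma, 1 kept it on log2(FPKM + 1) and 0 with log2(FPKM + 0.1) or without a filter on FPKM. Limma gave fewer adjusted p-values under 0.05 over all genes too (9.08%, 1.16% and 2.65% of those tested, against 38.5%). Library totals moved the median log2 fold change of all genes from 0.0069 to 0.117 and the share of higher calls from 56.3% to 73.6%, and limma on log2(FPKM + 1) moved the median to 0.1048. The 2 members called, both higher, became 4 with library totals (ABCA8 and ABCD4 added), 1 (ABCA4) with limma on log2(FPKM + 1) and 0 with its other settings, and 13 (8 higher, 5 lower) by adjusted p alone. With 1 library left out, 2 to 3 were called, 2 to 3 higher and 0 to 1 lower, the last being ABCE1 without vehicle replicate 1. DESeq2, DESeq2-type size factors, both filters and an adjusted p under 0.01 called ABCA4 and ABCA7. Signs changed for 5 of the 21 members followed through the alternatives, none of them among the 13. With 1 library left out, ABCB1 went from -0.35 to 0.05 on the log2 scale, and the other ranges were -0.08 to 0.13 for ABCC10, -0.19 to 0.22 for ABCC5 and -0.45 to 0.76 for ABCG2, and ABCC2 was at 0.15, 0.51 and 0.15 in the 3 limma settings. Without gemcitabine replicate 2, where more of all genes passed too, ABCA2 (-0.19), ABCC4 (-0.23) and ABCC5 (0.22) gained an adjusted p under 0.05. With library totals ABCF3 (0.25) gained it. Expression at 0.1 FPKM gave 33 members (73.3%, against 70.7% of all genes) and at 5 FPKM 19 (42.2%, against 49.3%), in place of 26. A peak over the start gave 13 members (28.9%, against 26.4% of all genes) in place of 15, and a peak within 5000 bases 20 (44.4%, against 33.1%). A score of at least 100 gave 4 (8.89%, against 9.49%). The causes of these differences were not tested. No paired analysis was possible because the library index of the table has no stated link to the replicate numbers in the labels.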

Other observations

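Members of the ABC superfamily that carry other names were read from the same edgeR test (quasi-likelihood, Benjamini-Hochberg adjustment). TAP1 and TAP2 form the peptide transporter that loads MHC class I, and their fragment counts moved in opposite directions. TAP1 had 838 and 811 fragments in vehicle and 929 and 1045 after gemcitabine, or 0.37 on the log2 scale (standard error 0.083, edgeR adjusted p = 0.00253). TAP2 went from 959 and 1038 to 710 and 788 fragments and fell by 0.30 on the log2 scale (standard error 0.079, edgeR adjusted p = 0.00785), while its FPKM overlapped, at 33.4 and 24.5 against 27.0 and 40.0. CFTR, the chloride channel of duct epithelium, had 3 fragments in each vehicle library and 16 and 8 after gemcitabine, or 2.07 on the log2 scale (standard error 0.64, edgeR adjusted p = 0.0187) at less than 0.1 FPKM. None of these genes met all 4 criteria for a call.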
